A study of Mus musculus with 477 samples.

Results

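Library batch 6 of the C1 experiment held cells of 1 mammary tumor and of 1 pregnant mammary gland, and these cells were compared here. They were all the count columns whose title carried the prefix SC6, which is read here as a library batch, since whether the cells also shared a capture chip is not given in the sources used here. The columns were 89 of 477 cells, of which 51 were labelled Br53T2 and 38 were labelled pBrL. The other pBrL mouse was processed in library batch 5. It is called pBrL-1 here, with 71 cells, and the mouse of batch 6 is called pBrL-2. Br53T2 was a tumor of about 1 cm from a female MMTV-Cre; *Brca1* fl/fl; *Trp53* fl/+ mouse, and pBrL-2 was a female MMTV-Cre; *Brca1* fl/fl mouse of 3 to 4 months at day 12.5 of pregnancy. Both carried the floxed *Brca1* allele and the Cre driven by the mouse mammary tumor virus promoter on a mixed C57BL/6 and 129/Sv background. The luminal mouse also carried the ROSA mT/mG reporter, which the paper does not name in the genotype of the tumors. From lineage-depleted cells, the tumor cells were sorted as live CD24+ cells, and the luminal cells as live CD24-high, CD29-low cells that had switched to membrane GFP, so CD29-high basal cells were gated out of the luminal sample alone. The *Trp53* allele, the tissue, pregnancy and the sort therefore all differ between the 2 mice and cannot be told apart. The age of the tumor mouse is not in the sample labels, so age cannot be told apart from these either. With 1 mouse a side no test between the conditions was possible. The counts over all genes are set beside those between the 2 pBrL mice, as are the list medians in the text or in the plot of list medians, the value of pBrL-1 is given for some single genes, and intervals on summed reads or shares of cells cover counting error only.

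The mammary epithelium has an inner luminal layer, which makes milk, and an outer basal layer of contractile myoepithelial cells resting on the basement membrane. During pregnancy, prolactin acts through its receptor and the transcription factor STAT5 to drive luminal alveolar cells, marked by the factor *Elf5*, to make caseins and milk fat. Another luminal type senses hormones and carries estrogen, progesterone and prolactin receptors. Loss of BRCA1, a protein of DNA break repair, in luminal cells leads to tumors that often carry basal keratins.

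Milk genes were the list with the lowest median in the tumor, and 3 of their promoters are shown because they hold the letters TTCNNNGAA, the type of site that STAT5 binds. The match is in capitals and the stretch runs 5′ to 3′ along the strand of the gene (RefSeq, GRCm38.p6).
Csn2 (chr5:87699450-87699578, minus strand): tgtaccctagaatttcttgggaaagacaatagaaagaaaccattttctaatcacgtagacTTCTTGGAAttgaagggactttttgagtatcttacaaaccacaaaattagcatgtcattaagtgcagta
Csn1s1 (chr5:87666048-87666176, plus strand): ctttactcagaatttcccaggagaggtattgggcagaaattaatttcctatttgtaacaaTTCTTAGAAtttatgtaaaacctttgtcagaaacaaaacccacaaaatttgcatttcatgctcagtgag
Glycam1 (chr15:103565158-103565286, minus strand): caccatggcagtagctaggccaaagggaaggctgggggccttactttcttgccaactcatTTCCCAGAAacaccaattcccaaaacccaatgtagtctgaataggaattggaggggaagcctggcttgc
The matches begin 93, 100 and 145 bases before the RefSeq start site of *Csn2*, *Csn1s1* and *Glycam1*. In promoters of 250 bases before to 50 bases after a start site, TTCNNNGAA was found in 4 of the 13 milk protein genes that had a promoter sequence (30.8%), *Csn1s2a* being the other, in 0 of 13 basal genes and in 9.55% of all 27025 genes. The AP-1 type letters TGANTCA were found in 1 of 13 milk protein genes, in 1 of 13 basal genes and in 8.97% of all genes. Both motifs read the same on either strand, and a match is a description of letters, not a shown binding site.

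Cells of Br53T2 held 518319 to 2876544 reads with a median of 1912646, and cells of pBrL-2 held 309390 to 3249791 reads with a median of 2173739. The medians of detected genes were 6244 and 5723. The targeted genes could not check the labels, since the values are reads per whole gene. *Brca1* (chr11:101488764-101551955) had 21.7 CPM, the summed reads of a mouse scaled to a total of 1000000, in Br53T2, 31.8 in pBrL-2 and 2.03 in pBrL-1. *Trp53* (chr11:69580359-69591873) had 140 CPM in Br53T2, 515 in pBrL-2 and 413 in pBrL-1. Among cells, *Trp53* ran from 0 through a median of 5.49 to 938 CPM in the tumor and from 0 through 466 to 1733 CPM in the gland. At least 100 CPM was reached by 16 of 51 tumor cells (exact binomial 95% interval 19.1% to 45.9%) and by 31 of 38 luminal cells (65.7% to 92.3%). Both ranges began at 0 and overlapped.

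The labels were checked against defining markers. All 38 pBrL-2 cells had at least 100 CPM of the luminal keratin *Krt18* and 37 of 38 of *Krt8*, and reads of the milk protein list took 0.142% to 24.6% of a cell's reads with a median of 13.01%. Of the Br53T2 cells, 38 of 51 reached that level of *Krt18* and 36 of 51 of *Krt8*. Summed markers of other cell types were low in both samples. The summed level of 10 fibroblast markers was 104 CPM in Br53T2 and 0.143 in pBrL-2, that of 13 immune markers was 51.9 and 15.03, and that of 6 endothelial markers was 51.1 and 15.96. Red cell markers summed to 7.61 and 0.545 CPM and adipocyte markers to 12.2 and 15.4 CPM. *Dcn*, a matrix proteoglycan, gave most of the fibroblast sum with 87.5 CPM in the tumor, and had 25.4 in pBrL-1. Single tumor cells held up to 0.297% of their reads in fibroblast, 0.102% in immune and 0.305% in endothelial markers. The highest shares in pBrL-2 cells were 0.000613%, 0.0570% and 0.0401%.

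Cells mostly resembled the cells of their own mouse. Over the 2000 genes of highest variance, 47 of 51 tumor cells correlated better with the mean of the other tumor cells than with the luminal mean, and 37 of 38 luminal cells lay nearer to the luminal mean. The median correlation with the mean of the own mouse was 0.391 in Br53T2 and 0.530 in pBrL-2, against 0.0673 and 0.121 with the mean of the other mouse, so the tumor cells were the more varied sample. The 4 tumor cells nearer to the luminal mean had 183 CPM or more of the alveolar factor *Elf5*, and milk protein genes took 4.06% to 6.53% of their reads. The single luminal cell nearer to the tumor mean had 0 reads of *Elf5*, *Krt17* and *Acta2* and 0.142% of its reads in milk protein genes, the lowest share of the 38.

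Of 9772 genes with at least 10 CPM in either mouse of the batch, 1376 (14.1%) were at least 4-fold higher in Br53T2 and 658 (6.73%) at least 4-fold lower, on log2(CPM + 1). Between the 2 pBrL mice, 283 of 8916 genes (3.17%) were at least 4-fold higher in pBrL-1 and 374 (4.19%) at least 4-fold lower. The median absolute log2 difference was 0.86 between tumor and gland and 0.49 between the pBrL mice over the same 9772 genes. Against pBrL-1 in place of pBrL-2, 997 of the 1376 higher genes and 347 of the 658 lower genes also differed by 4-fold in the same direction. Single cells carried part of these calls: in 435 of the higher and 214 of the lower genes, over 50% of the reads of the higher mouse came from 1 cell. The median over all 9772 genes was 0.14, and list medians below are read beside it.

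Milk protein genes were the most reduced group in the tumor. Of 17 measured, 13 were at least 4-fold lower in Br53T2 (76.5% against a background of 6.73%), 0 were higher, and the median log2 difference was -4.85, where pBrL-1 minus pBrL-2 gave 0.29. The summed level of the list was 10728 CPM in Br53T2, 129191 in pBrL-2 and 158096 in pBrL-1, and it lay between 53836 and 76472 CPM in the 3 virgin luminal mice and between 6802 and 30490 in the other 3 tumors. *Csn2*, which encodes beta-casein, ran from 0 through a median of 2.69 to 21996.5 CPM in tumor cells and from 12.3 through 39266 to 87452.5 CPM in luminal cells. Its summed level was 873 CPM (exact Poisson 95% interval 867 to 879) against 37770 (37726 to 37813), which is 43.3-fold lower in the tumor. At least 100 CPM of *Csn2* was found in 6 of 51 tumor cells and in 37 of 38 luminal cells, and 59.3% of the tumor reads came from 1 cell. For *Csn1s2a*, another casein, 1 tumor cell gave 98.9% of the reads. The ranges overlapped through those few tumor cells and 1 luminal cell at 12.3 CPM.

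The other milk genes ranged from a few reads in the tumor to levels near those of the gland. *Glycam1*, a secreted mucin of milk, had 8 reads in all 51 tumor cells and 2717 CPM in pBrL-2, and its highest tumor cell reached 1.83 CPM where the luminal median was 797. *Wap*, whey acidic protein, had 0.231 against 216 CPM, *Cel*, the milk lipase, 0.0550 against 128, and *Spp1*, osteopontin, 11.9 against 3591. The reads of *Spp1* in the tumor came to 80.8% from 1 cell. *Wfdc18*, a small secreted protein of the whey acidic protein family, was closest to the gland among those that passed the threshold, with 4632 against 19255 CPM and at least 100 CPM in 27 of 51 tumor cells. *Lcn2*, lipocalin-2, and *Mfge8*, a protein of milk fat globules, differed little, with 1373 against 1717 CPM and 600 against 789 CPM.

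**Figure D1:**
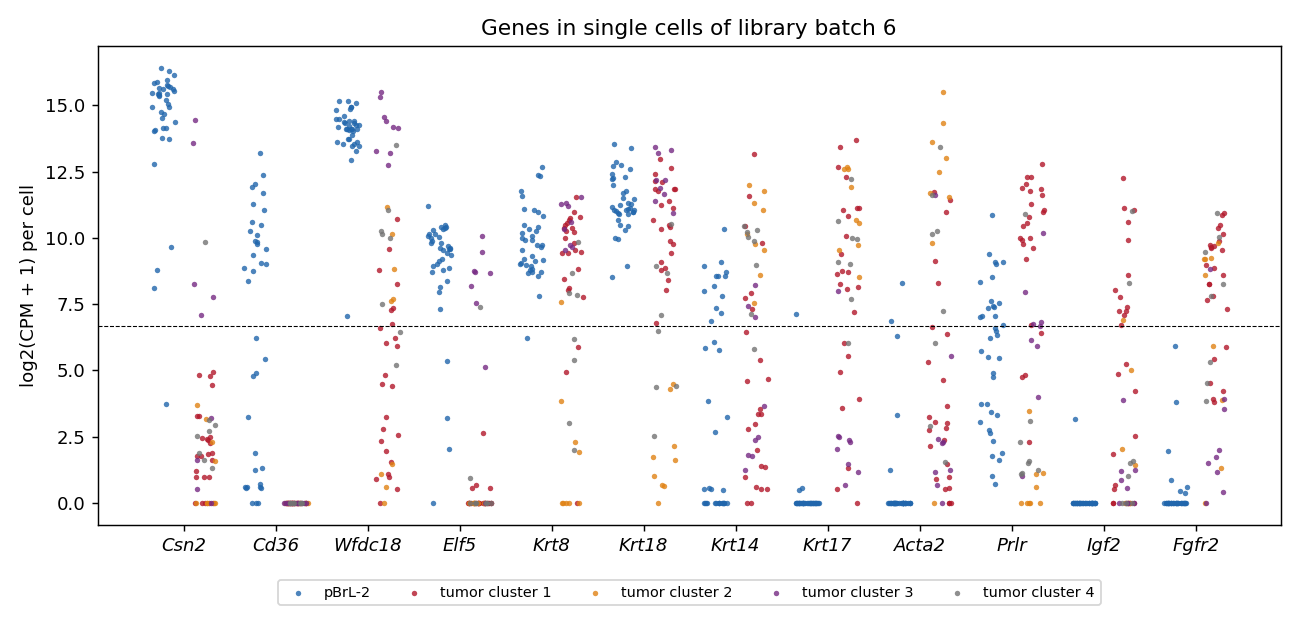
Each point is a cell of library batch 6, the y axis gives log2(CPM + 1) of the gene named below, and the dashed line marks 100 CPM. Luminal cells of pBrL-2 are on the left of each gene and tumor cells on the right, coloured by the 4 tumor clusters described in the text. *Csn2* was low in most tumor cells and high in most luminal cells, *Cd36* was at 0 in all tumor cells and in 3 luminal cells, *Krt8* and *Krt18* overlapped, and *Krt17*, *Acta2*, *Igf2* and *Fgfr2* were high in part of the tumor cells.

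Genes for taking up and making fatty acids followed the milk genes in part. Of 23 measured, 11 were at least 4-fold lower (47.8% against 6.73% of all genes) and 2 higher (8.70% against 14.1%) in Br53T2, with a median of -1.58 against 0.70 between the pBrL mice. *Cd36*, a fatty acid transporter, had 0 reads in the tumor and 1057 CPM in pBrL-2, where cells ran from 0 through 445 to 9464 CPM. Set against a floor of 3 reads over the tumor, it was at least 31994-fold lower. *Fabp3*, a fatty acid binding protein, had 0.661 against 438 CPM, with all tumor reads in 1 cell. *Thrsp*, an inducer of lipid synthesis, had 4.93 against 960 CPM, and *Lpl*, lipoprotein lipase, 6.13 against 360. The fatty acid synthase *Fasn* had 63.96 against 320 CPM. Not all members were lower: *Scd2*, a desaturase, was higher in the tumor with 119 against 7.57 CPM and 36.2 in pBrL-1, as was *Acss2*, which activates acetate, with 19.3 against 2.21 CPM and 55.6% of its tumor reads in 1 cell, and *Acaca*, which commits acetyl-CoA to the pathway, had 73.4 against 51.7 CPM.

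Of 13 genes for triglycerides and milk fat droplets, 4 were at least 4-fold lower (30.8% against 6.73% of all genes). These were *Btn1a1*, butyrophilin of the droplet membrane, with 3.52 against 364 CPM, *Lpin1*, a phosphatase of triglyceride synthesis, with 23.9 against 647, *Plin2*, which coats lipid droplets, with 370 against 3545, and *Xdh* with 33.7 against 307. Of 18 measured genes of cholesterol synthesis, shares near those of all genes passed 4-fold: 3 were higher (16.7% against 14.1%), *Sqle* with 302 against 53.1 CPM and *Msmo1* with 137 against 9.77 among them, 2 were lower (11.1% against 6.73%), *Mvd* and *Lss*, and the median was 0.20 against 0.41 between the pBrL mice. Among 18 transporters of lactation 5 were lower (27.8% against 6.73% of all genes) and 1 higher (5.56% against 14.1%), with a median of -0.15 against 0.48 between the pBrL mice. *Slc28a3*, a nucleoside transporter, had 24.6 against 1255 CPM, and *Slc34a2*, a phosphate transporter, had 0.0771 against 35.5. The 20 genes of protein folding in the endoplasmic reticulum had 0 members past 4-fold, where 14.1% of all genes were higher and 6.73% lower. The median of these 20 genes was 0.19, against 0.17 between the pBrL mice, beside the milk genes whose products are secreted through that compartment.

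**Figure D2:**
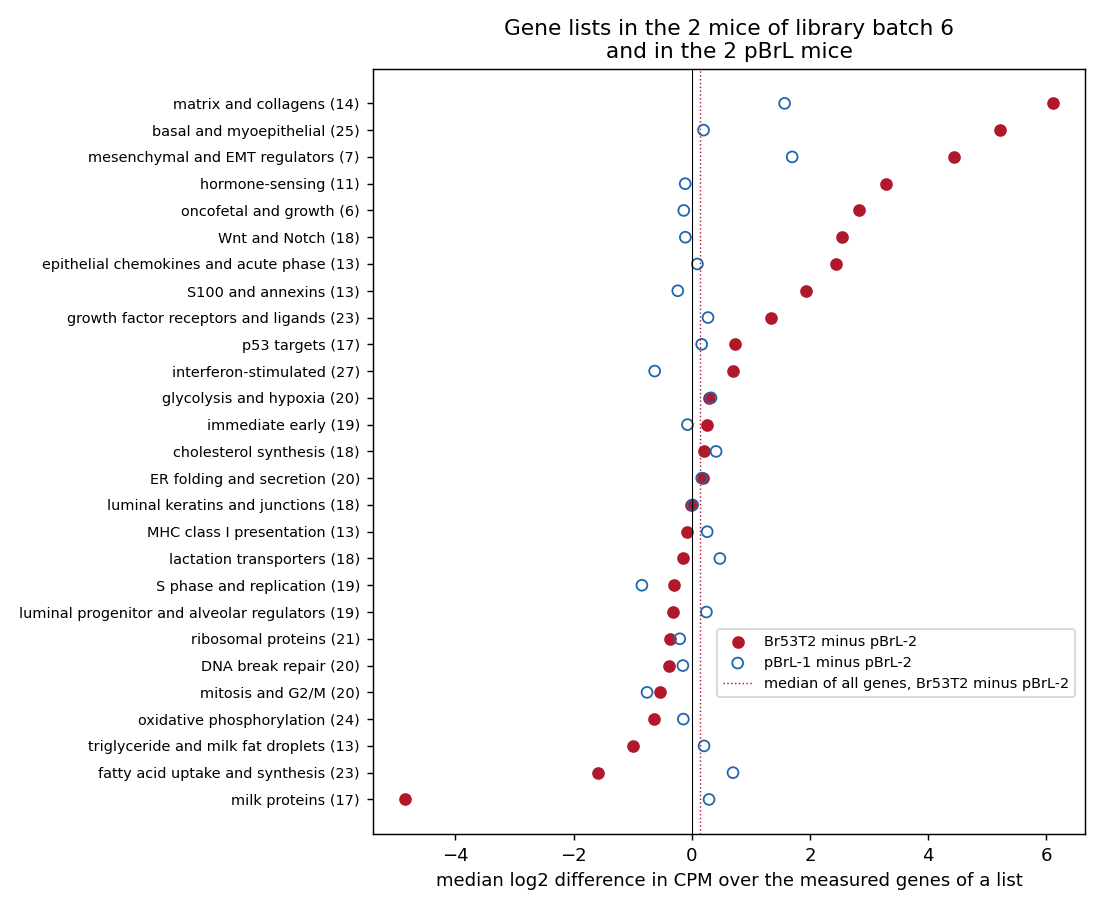
The x axis gives the median log2 difference in CPM over the measured genes of each list, with their number in brackets, for lists with at least 6 measured genes. Filled points are Br53T2 minus pBrL-2, open points are pBrL-1 minus pBrL-2, and the dotted line is the median of all genes between tumor and gland. Milk proteins lay lowest at -4.85 and the matrix, basal and mesenchymal lists highest, of which the matrix and mesenchymal genes were measured mostly through the tumor, while the open points lay between -0.84 and 1.70.

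Luminal keratin and junction genes were kept in the summed tumor. The 18 luminal keratin and junction genes had a median of -0.02, against 0.01 between the pBrL mice, with 3 higher, a share of 16.7% near the 14.1% of all genes, and 0 lower, and their summed level was 9322 CPM in Br53T2 and 9594 in pBrL-2. *Krt8* had 880 against 1148 CPM, *Krt18* 2453 against 3297, *Krt19* 818 against 889 and the cadherin *Cdh1* 782 against 738. *Krt7*, another simple epithelial keratin, was higher with 497 against 39.2 CPM and reached 100 CPM in 34 of 51 tumor cells and 6 of 38 luminal cells. *Dsp*, desmoplakin of the desmosomes, had 451 against 14.2 CPM. Among 19 regulators of luminal progenitors and alveoli, 4 were at least 4-fold higher (21.1% against 14.1% of all genes) and 2 lower (10.5% against 6.73%). Their median was -0.31, against 0.25 between the pBrL mice, and -0.84 with pBrL-1 in place of pBrL-2. *Elf5* was lower with 72.96 against 808 CPM, while *Gata3*, which specifies luminal cells, had 355 against 362. *Sox9*, a progenitor factor, had 909 against 225 CPM.

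Hormone-sensing genes were higher in the tumor: 8 of 11 measured genes were at least 4-fold higher and 1 lower, against backgrounds of 14.1% and 6.73%. Members such as *Foxa1*, *Areg* and *Ly6a* passed the minimum of 10 CPM through the tumor alone, so these counts are a description. *Prlr*, the prolactin receptor, had 1161 against 182 CPM. In cells it ran from 0 through 103 to 7018.5 CPM in the tumor and from 0.625 through 77.5 to 1862.5 CPM in the gland, so the ranges overlapped and the tumor maximum was the higher one. *Areg*, the EGF receptor ligand amphiregulin, had 260 against 6.71 CPM and was at 100 CPM or more in 23 of 51 and 1 of 38 cells. *Foxa1*, a factor that opens chromatin for steroid receptors, had 96.2 CPM against 0 reads, at least 2471-fold higher, with 8 tumor cells at 100 CPM. *Esr1*, the estrogen receptor, had 116 against 46.2 CPM and did not reach 4-fold. *Ly6a*, known as Sca-1, had 762.05 against 4.41 CPM. *Rspo1*, a Wnt agonist, went the other way with 26.5 against 164 CPM. The summed level of this list was 2619 CPM in Br53T2, 369 to 461 in the 4 pregnant luminal mice, 1090 to 5607 in the 3 virgin luminal mice and 115 to 504 in the other 3 tumors, so pregnancy and tumor cannot be told apart for it.

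Basal and myoepithelial genes were higher in the tumor: 19 of 25 measured genes were at least 4-fold higher (76% against 14.1% of all genes) and 0 lower, with a median of 5.21, or 5.88 with the 3 genes at 0 reads in pBrL-2 set at their bound, and 0.20 between the pBrL mice. Of the 25 genes 7 also differed by 4-fold between the pBrL mice, and against pBrL-1 the tumor median was 3.33. The luminal gate removed CD29-high cells and the tumor gate did not, so the gate and the tumor cannot be told apart for this list. Its summed level was 10180 CPM in Br53T2, 893 to 1973 in the 7 luminal mice and 1823 to 2339 in the other 3 tumors, whose sort was the same. *Krt17* (chr11:100256217-100261029), a keratin of basal and stressed epithelium, ran from 0 through 413 to 13252 CPM in tumor cells, and in luminal cells from 0 through 0 to 140 CPM. The sums were 1754 CPM (1745 to 1762) and 3.06 CPM (2.68 to 3.48), 573-fold higher in the tumor, and 99.2% of the luminal reads lay in 1 cell. At least 100 CPM was found in 34 of 51 tumor cells (52.1% to 79.2%) and 1 of 38 luminal cells (0.0666% to 13.8%).

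The other basal genes differed in how many tumor cells carried them. *Krt14* had 643 against 130 CPM and was at 100 CPM in 26 of 51 tumor cells and also in 13 of 38 luminal cells. *Krt5*, its partner keratin, had 126 against 0.247 CPM, with 3.11 in pBrL-1, and was found at that level in 14 and 0 cells, and *Trp63*, the master regulator of basal cells, had 133 against 0.428 CPM in 15 and 0 cells. *Acta2*, smooth muscle actin, had 2508 against 10.4 CPM and 248 in pBrL-1, and in the tumor 36.04% of its reads came from 1 cell. *Col17a1*, which anchors basal cells to the basement membrane, had 209 CPM against 0 reads. *Krt6a*, a keratin of activated epithelium, had 422 against 4.24 CPM, and *Jag1*, a Notch ligand, 298 against 3.62.

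The 30 matrix genes summed to 2693 CPM in Br53T2, 407 in pBrL-2 and 696 in pBrL-1, and to between 1515 and 9363 CPM in the other 3 tumors. Of the 30 genes 14 passed the minimum of 10 CPM, and 12 had 0 reads in pBrL-2. Most of those that passed did so through the tumor alone and so had to differ, and the 12 higher genes and 1 lower gene, with a median of 6.11, or 3.31 with a minimum of 1 CPM, are a description only. *Postn*, periostin, had 450 against 0.649 CPM, with 18.6 in pBrL-1, and reached 100 CPM in 17 of 51 tumor cells. *Col4a1* and *Col18a1*, basement membrane collagens, had 266 against 0.844 and 159 against 0.0260 CPM, with 45.3 and 1.96 in pBrL-1. *Sparc* had 785 against 4.95 CPM and 91.8 in pBrL-1, and *Fn1*, fibronectin, 357 against 1.82 and 11.8 in pBrL-1. The summed levels of these genes thus differed several-fold between the pBrL mice, with the tumor above both. Among cells, the matrix list took a median of 0.0317% of reads and at most 0.842% in pBrL-1, against 0.0263% and 0.288% in pBrL-2. The main fibrillar collagens of stroma stayed low, with 0.738 against 0.0519 CPM of *Col1a1* and 0 reads against 0.0130 CPM of *Col3a1*. The same holds for the 16 mesenchymal genes and EMT regulators, of which 7 passed the minimum. They summed to 1440 CPM in Br53T2, 27.6 in pBrL-2 and 126 in pBrL-1, and 4 of the 7 differed by 4-fold between the pBrL mice. *Vim*, vimentin, had 212 against 2.05 CPM and 8.90 in pBrL-1, and was at 100 CPM in 11 of 51 and 0 of 38 cells.

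Of 23 measured growth factor receptors and ligands 8 were at least 4-fold higher (34.8% against a background of 14.1%), 0 were lower and 15 did not pass 4-fold. Members such as *Fgfr2* and *Epgn* passed the minimum through the tumor alone, so these counts are a description. *Fgfr2*, an FGF receptor, had 454 against 2.00 CPM and 3.22 in pBrL-1, and was at 100 CPM or more in 30 of 51 tumor cells and 0 of 38 luminal cells. *Epgn*, the EGF receptor ligand epigen, had 271 CPM against 0 reads. *Igf2* had 327 against 0.208 CPM and *H19*, the noncoding RNA beside it, 701 CPM against 0 reads in both pBrL mice, at least 17993-fold higher. In cells *H19* ran from 0 through 3.74 to 10708 CPM in the tumor and was at 100 CPM in 14 of 51 cells, with 39.8% of its reads in 1 cell. In the Wnt and Notch list 18 of 27 genes passed the minimum, 9 had 0 reads in pBrL-2, and 10 were higher (55.6% against 14.1% of all genes) and 1 lower, among them *Lgr6* with 523 against 95.1 CPM and *Wnt4* with 64.1 against 5.65 and 33.3 in pBrL-1. Members passed partly through the tumor alone, so these counts too are a description, and the median of 2.54 was 0.24 with a minimum of 50 CPM and 0.74 without the 9 tumor cells led by *Acta2*. Of 13 S100 and annexin genes 6 were higher (46.2% against 14.1% of all genes), led by *S100a6* with 983 against 37.2 CPM in 46 of 51 and 5 of 38 cells and *Anxa3* with 904 against 46.97.

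The rule for naming single genes took those at least 4-fold different from both pBrL mice, with 50 CPM or more and reads in at least 50% of the cells of the higher mouse, and was met by 158 higher and 83 lower genes. The highest 15 differences led with *Ccnd2*, a G1 cyclin, with 487 CPM against 0 reads and 7.03 CPM in pBrL-1, *Id3*, an inhibitor of differentiation factors, with 681 against 0.571 CPM, and *Krt17*, *Plac8* and *Postn*. *Id3* reached 100 CPM in 35 of 51 tumor cells and *Plac8* in 20, and neither did in any luminal cell. *Cnn2*, a calponin, had 291 against 0.104 CPM and 13.9 in pBrL-1, and *Slc7a2*, a transporter of basic amino acids, 196 against 0.415. At the other end stood *Glycam1*, *Cd36*, *Spp1* and *Fabp3*, followed by *Timd2* with 0.165 against 191 CPM, and further down *Lipa*, lysosomal acid lipase, with 27.2 against 1579. *Pigr*, which carries IgA into milk, had 2.25 against 187 CPM, *Folr1*, a folate receptor, 3.16 against 189, and *Gjb6*, a gap junction protein, 3.64 against 216.

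Of 20 genes of mitosis and 19 of S phase, 0 passed 4-fold in either direction, where 14.1% of all genes were higher and 6.73% lower, with medians of -0.54 and -0.30, against -0.76 and -0.84 between the pBrL mice. At least 5 of the 20 mitosis genes were at 100 CPM or more in 7 of 51 tumor cells (5.70% to 26.3%) and in 15 of 38 luminal cells (24.04% to 56.6%), beside 13 of 71 cells of pBrL-1. Among 20 genes of DNA break repair 0 were higher and 1 lower, a share of 5% near the 6.73% of all genes. It was *Fancd2*, with 4.32 against 39.5 CPM and 2.68 in pBrL-1. The 19 immediate early genes, which rise with tissue dissociation, had 0 members past 4-fold, beside the same shares of all genes, and a median of 0.25. Of 17 p53 target genes 4 were higher (23.5% against 14.1% of all genes) and 1 lower (5.88% against 6.73%), with a median of 0.74 against 0.17 between the pBrL mice. The higher ones were *Perp* with 321 against 52.4 CPM, *Pmaip1* with 112 against 8.36, *Zmat3* and *Phlda3*, and the lower one was *Sesn2*, with 78.9% of its luminal reads in 1 cell. *Cdkn1a*, the p21 inhibitor of the cell cycle, had 186 against 120 CPM and *Mdm2* 202 against 129. The 24 genes of oxidative phosphorylation had a median of -0.64, against -0.14 between the pBrL mice, and the 21 ribosomal protein genes one of -0.36, against -0.20. In each list 0 genes were at least 4-fold higher and 1 was lower, *Ndufv1* (4.17%) and *Rpl11* (4.76%). Both shares were below the 6.73% of all genes.

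Interferon genes were mixed, and single cells carried most of the reads of 3 of the lower ones. Of 27 measured 9 were at least 4-fold higher in the tumor (33.3% against 14.1% of all genes) and 4 lower (14.8% against 6.73%), and 9 also differed by 4-fold between the pBrL mice. *Usp18* had 223 against 25.3 CPM and was at 100 CPM in 21 of 51 cells, and *Irf7*, a driver of the interferon response, had 162 against 5.35 CPM. On the lower side, 1 luminal cell gave all reads of *Cxcl9* in the gland, 93.3% of those of *Ifit2* and 90.3% of those of *Irgm1*, while *Ifi47* had 46.35 against 202 CPM. In MHC class I presentation, *B2m* had 5305 against 3027 CPM, and of 13 genes 0 were higher, against 14.1% of all genes, and 2 lower (15.4% against 6.73%), with a median of -0.08 against 0.26 between the pBrL mice. Of 20 chemokine and acute phase genes 13 passed the minimum, some through the tumor alone, and 5 of the 20 had 0 reads in pBrL-2. As a description, 7 of the 13 were higher (53.8% against 14.1% of all genes), among them *Hp*, haptoglobin, with 88.6 CPM against 0 reads, and 2 were lower, *C3* and *Pigr*. *Ccl2* had 200 against 0.286 CPM, with 68.1% of the tumor reads in 1 cell, and 1 cell gave 99.7% of the *Cxcl3* and 95.2% of the *Cxcl5* reads. Only 2 of 8 genes of MHC class II were measured, and neither passed 4-fold. Of 20 glycolysis and hypoxia genes 3 were higher, *Adm*, *Bnip3* and *Egln3*, a share near the 14.1% of all genes.

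The tumor cells did not carry these programs together. Ward clustering on 10 principal components of the 2000 most variable genes placed the 51 cells in groups of 25, 9, 9 and 8, numbered 1 to 4 here by their leading genes, and the 4 groups were set after the values were seen. Genes that lead a cluster are a description, since the cells were grouped by them. Cluster 1, with 25 cells, was led by *Gpx3*, *Krt6a*, *Prlr* and *Areg*. *Prlr* was at 100 CPM or more in 21 of its 25 cells and in 6 of the other 26, *Krt18* in 25 and *Krt7* in 24, and it held 13 of the 16 cells with *Igf2*, 12 of the 14 with *H19* and all 8 with *Foxa1*. Cluster 2, with 9 cells, was led by *Col4a2*, *Acta2*, *Col4a1* and *Postn*. *Acta2* was found in 8 of its 9 cells and *Krt14*, *Krt17*, *Sparc* and *Apoe* in all 9, while *Krt18* was found in 0 and *Krt8* in 1. These 9 cells held a median of 3510 genes against 6244 to 6827 in the other clusters, and the part of this gap in their profile was not tested. Cluster 4, with 8 cells, was led by *Tnc*, *Anxa8* and *Krt5*, and carried basal keratins with *Krt8* in 4 of 8 cells and *Mki67*, a proliferation marker, in 4 of 8. At least 5 mitosis genes were at 100 CPM or more in 1 of 25, 0 of 9, 3 of 9 and 3 of 8 cells of clusters 1 to 4.

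**Figure D3:**
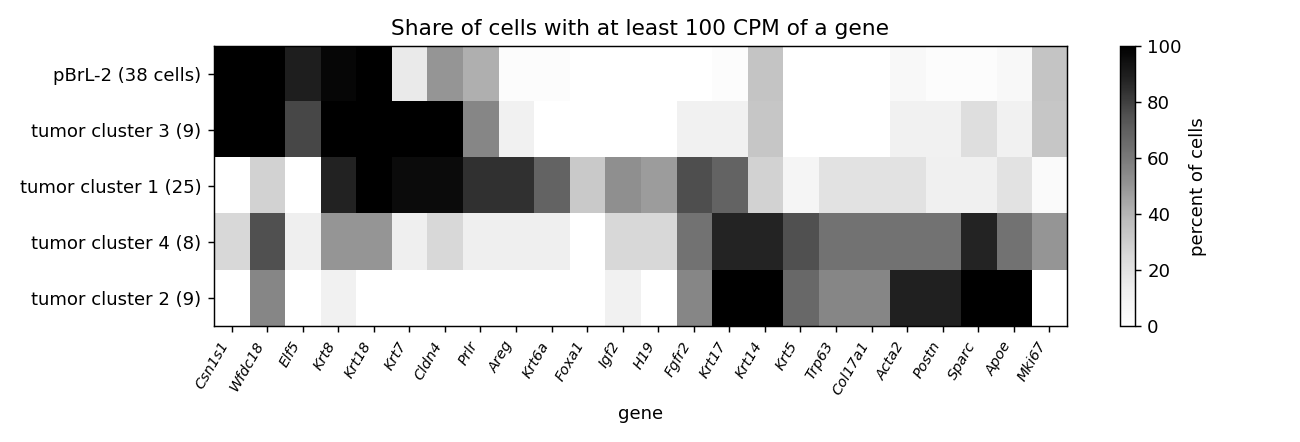
Grey gives the percent of cells with at least 100 CPM of each gene, for pBrL-2 and the 4 tumor clusters, with cell numbers in brackets. Cluster 3 shared the milk genes and *Elf5* with pBrL-2, cluster 1 carried *Krt8*, *Krt18*, *Prlr*, *Areg*, *Igf2* and *H19*, and *Krt17* was found in 17 of 25, 9 of 9, 1 of 9 and 7 of 8 cells of clusters 1 to 4.

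Basal and luminal keratins overlapped in single tumor cells. *Krt17* and *Krt18* were both at 100 CPM or more in 22 of 51 tumor cells (43.1%) and in 1 of 38 luminal cells. *Krt14* and *Krt8* were both found in 12 of 51 tumor cells, against 14 cells with *Krt14* alone and 24 with *Krt8* alone, and in 13 of 38 luminal cells, where 0 had *Krt14* alone. *Trp63* and *Krt8* were joined in 7 tumor cells. *Acta2* and *Prlr* were joined in 4 cells, where 15 had *Acta2* alone and 23 *Prlr* alone. The authors examined the capture chambers under a microscope for doublets, and doublets were not called again here.

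Cluster 3 held most of the milk reads of the tumor. Its 9 cells had 82.1% of the tumor's milk protein reads and 96.03% of its casein reads, and they included all 4 tumor cells nearer to the luminal mean. *Csn1s1*, alpha-S1-casein, was at 100 CPM or more in 9 of 9 cells, *Csn3*, kappa-casein, in 7, *Csn2* in 5 and *Elf5* in 7, and *Wfdc18* had 22150 CPM in the cluster against 19255 in pBrL-2. Beside the pregnant gland the program was incomplete: *Glycam1*, *Wap*, *Cd36* and *Fabp3* were at that level in 0 of the 9 cells, *Btn1a1* in 1 and *Plin2* in 7. Milk protein genes took a median of 4.18% of reads in cells of cluster 3. The medians in the 3 virgin luminal mice, of other batches, were 4.25%, 5.41% and 2.58%. *Elf5* was not joined with *Igf2* or *H19* in any of the 51 cells, and it was joined with *Fgfr2* and with *Acta2* in 1 each. Some genes of the rest of the tumor were present: *Krt7* and *Cldn4* were at 100 CPM in 9 of 9 cells, *Ly6a* in 4 and *Vim* in 4, where pBrL-2 had 6, 19, 0 and 0 of 38 cells. The tumor sort had no gate on the GFP of recombined cells, and whether these 9 cells carried the tumor's alleles was not tested. Without them 899 genes were at least 4-fold lower in the tumor in place of 658, and the milk protein median was -7.18.

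**Figure D4:**
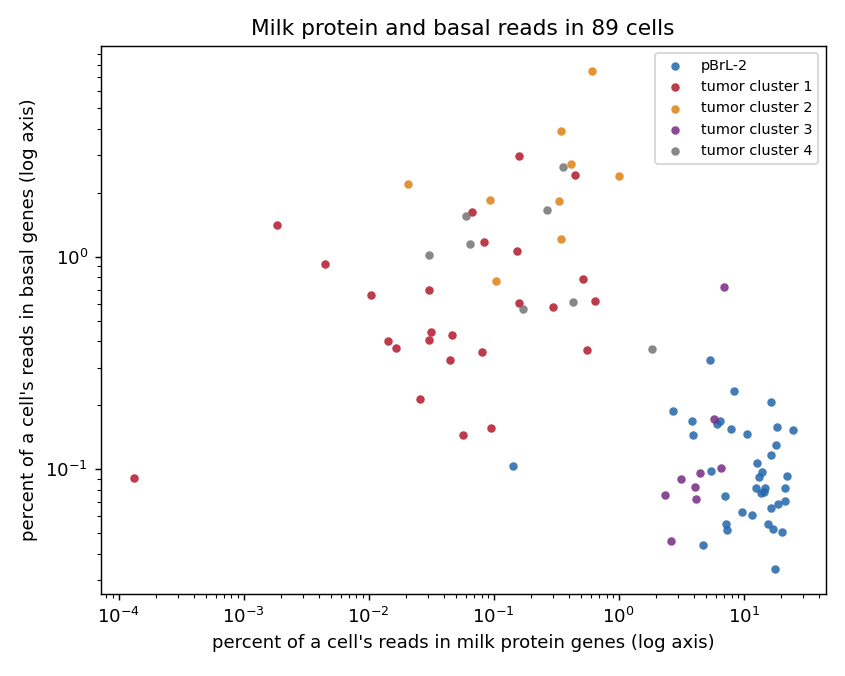
Each point is 1 of the 89 cells; the x axis gives the percent of its reads in the milk protein list and the y axis the percent in the basal list, both on log axes. The 9 cells of cluster 3 had 2.34% to 7.02% of reads in milk genes and overlapped pBrL-2, while clusters 1, 2 and 4 lay at 1.86% or less on the milk axis, and basal reads reached 7.47% in cluster 2.

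Milk reads at low levels were also found across the rest of the tumor. Outside cluster 3, 32 of 42 tumor cells had a read of *Csn2* (76.2%, 60.5% to 87.9%), with a median of 2.65 CPM. The tumors of other batches, which shared no batch with luminal cells, had a *Csn2* read in 0 of 47, 2 of 37 and 1 of 30 cells. *Csn1s2a* showed the same order, with 27 of 42 cells against 0 of 47, 4 of 37 and 1 of 30, and *Csn1s1* had 34 of 42 against 0 of 47, 19 of 37 and 13 of 30. *Glycam1* was read in 4 of 42 against 0 of 47, 0 of 37 and 0 of 30 cells, and *Wap* in 2 of 42 against 0 of 47, 1 of 37 and 1 of 30. *Lalba* and *Cd36* were read in 0 of 42. Other milk genes did not show this order: *Csn3* was read in 31 of 42 against 36 of 47, 37 of 37 and 30 of 30 cells, *Wfdc18* in 40 of 42 against 1 of 47, 36 of 37 and 30 of 30, and Trf, transferrin, in 31 of 42 against 5 of 47, 37 of 37 and 30 of 30. The 15 named genes that were higher in the tumor had a read in 0 to 7 of 38 luminal cells, with *Fgfr2* in 7, *Ly6a* in 6, *Krt17* in 3 and *Ccnd2* in 0. They were chosen for large differences from the pBrL mice, so low luminal counts were set by that choice. These counts therefore cannot show whether reads passed in the other direction. After thinning each cell to 100000 reads, 19 of 51 tumor cells still had a read of *Csn2* and 0 of 51 one of *Glycam1*. Whether reads passed between libraries of the batch was not tested.

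*Trp53* had 33.8 CPM in cluster 1, 148 in cluster 2, 439 in cluster 3 and 114 in cluster 4, against 515 in pBrL-2, and it was at 100 CPM or more in 2 of 25, 3 of 9, 8 of 9 and 3 of 8 cells. The level in cluster 3 was thus the only one near that of the gland. For each autosome the median log2 difference from pBrL-2, less the median over all 9441 autosomal genes, ran from -0.32 on chromosome 19 and -0.30 on chromosome 11 to 0.24 on chromosome 5 in Br53T2. The same measure between the pBrL mice ran from -0.05 to 0.06, with an SD over the 19 autosomes of 0.0338 against 0.152 for the tumor. The tumor shifts were thus wider than those between mice of 1 label.

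Chromosomes 11 and 19 were below 0 in all 4 clusters, to different extents, and clusters of 8 or 9 cells had no luminal set of the same size beside them. Chromosome 11 stood at -0.25 in cluster 1, -0.75 in cluster 2, -0.12 in cluster 3 and -0.47 in cluster 4, and chromosome 19 at -0.44 in cluster 1 and between -0.15 and -0.03 in the others. The SD over autosomes was 0.176, 0.247 and 0.149 in clusters 1, 2 and 4 and 0.0869 in cluster 3, where the other 5 luminal mice, set against pBrL-2 in the same way, gave 0.0439 to 0.126. Chromosome 11 stood between -0.03 and -0.21 in those mice too. In the 44 tumor cells with at least 4000 detected genes, chromosomes 11 and 19 stood at -0.27 and -0.31. Expression medians are no measure of DNA copies, which were not analysed here.

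**Figure D5:**
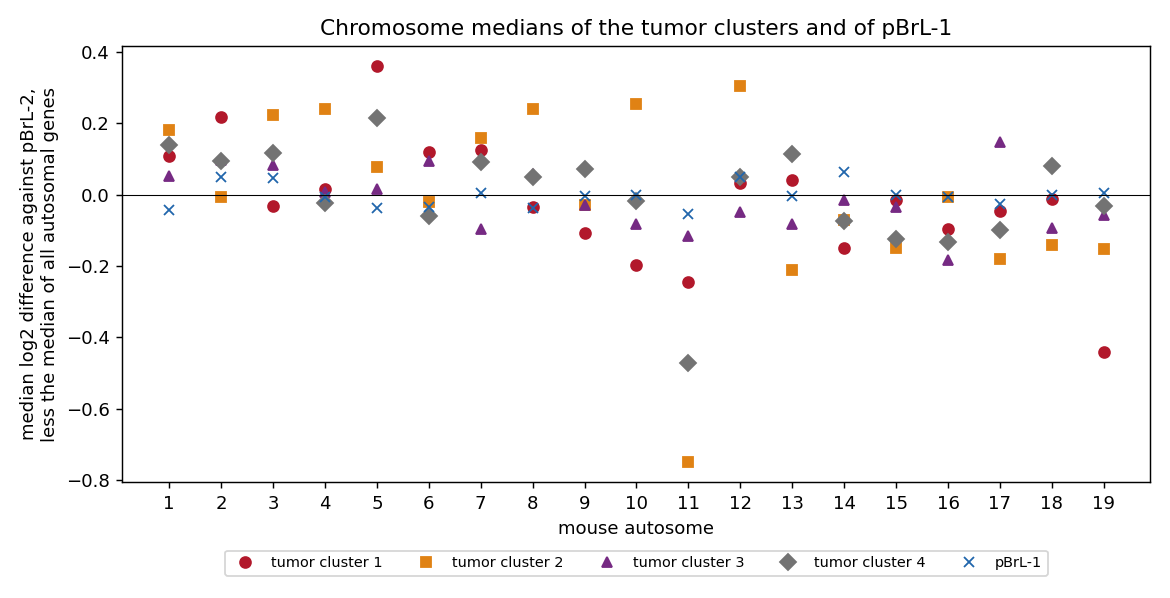
The y axis gives, for each autosome on the x axis, the median log2 difference in CPM against pBrL-2 less the median of all autosomal genes. Symbols stand for the 4 tumor clusters and for pBrL-1, which stayed between -0.05 and 0.06, while cluster 2 reached -0.75 on chromosome 11 and cluster 1 -0.44 on chromosome 19.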

How the data were processed

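Single cells were caught in C1 chips for cells of 10 to 17 µm, amplified by SMARTer and made into Nextera XT libraries. Quality filtering used sickle and adapter trimming used Trim Galore 0.4.1, reads were placed on mm10 by STAR 2.5.3a, and the authors deposited raw read counts per gene made with Subread 1.5.3. Which annotation was counted, whether strand was read and whether cells were filtered before deposit are not given in the sources used here, and overlapping genes may share reads. There were no molecular identifiers, so PCR copies counted separately and intervals cover counting error only. The table held 21004 genes, 0 of them mitochondrial.

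Counts were summed per mouse and scaled to CPM by the total. Differences are on log2(CPM + 1), which understates those of low genes, for genes with at least 10 CPM in either mouse, and folds are ratios of CPM. A gene can pass this minimum through 1 mouse alone, which favours a call in that direction. The 4-fold threshold is a size, not a test. Genes at 0 reads in a mouse were set against a floor of 3 reads. Shares of cells have exact Clopper-Pearson 95% intervals, and the level of 100 CPM per cell was chosen after values were seen. For shares with a read, cells were thinned to 100000 reads. Named genes were the 15 largest differences in each direction among genes 4-fold different from both pBrL mice, with at least 50 CPM and a read after thinning in at least 50% of the cells of the higher mouse, leaving out gene models; list genes were named by list. Members and the 33 lists were chosen with earlier results of these data known. Of the symbols, 99.6% matched GENCODE vM21 on GRCm38, the assembly mm10. Python 3 scripts with scipy and scikit-learn and edgeR 4.0.16 (scaling factors only) were used and tested on simulated counts. Levels are not corrected for gene length and were not compared between genes. Other scalings, filters, pseudocounts, fold sizes and cell sets were tried.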

Additional observations from a re-analysis of the deposited data

How the results depend on the processing

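No value here has a test, since each side held 1 mouse. No paired analysis was possible because the replicate numbers only count cells within 1 mouse a side and no result comes from a test. The 1376 higher and 658 lower genes became 529 and 216 with at least 50 CPM, 908 and 330 with a pseudocount of 5 CPM, 2567 and 1770 at 2-fold and 873 and 275 at 8-fold. Under the other 12 alternatives, both counts stayed within 1.5 times. The median of all genes moved from 0.14 to 0.01 with TMM factors and to -0.01 without caseins, so list medians of that size carry no direction. Higher genes made up 67.7% of the calls and between 62.1% and 68.1% under the other scalings and cell sets of batch 6. All 330 values of the 30 named genes under the alternatives stayed at least 4-fold with their sign, but these genes were chosen for large differences from both pBrL mice, so this is no support of its own. The counts of tumor and luminal cells nearer to their own mean, 84 of 89 in all, stayed within 1.5 times under 6 alternatives. The milk protein median stayed between -7.18 and -4.46 and the basal median between 3.33 and 6.05, while the medians of S phase, mitosis, DNA break repair, interferon, luminal keratins, folding, transporter, immune and adipocyte genes took both signs. With pBrL-1 in place of pBrL-2 the basal median was 3.33 and the matrix median 3.46, against 5.21 and 6.11, and without the 9 cells of cluster 2, a setting chosen after seeing the data like that without cluster 3, they were 4.85 and 4.50. The tumor clusters depended on the settings: the adjusted Rand index against them was 0.883 with 500 genes, 0.471 with 5000, 0.875 with 3 clusters and 0.538 after thinning, and 8 or 9 of the 9 cells of cluster 3 but only 25, 18, 25 and 15 of the 25 cells of cluster 1 stayed in 1 cluster, in that order of settings. These counts do not show whether cells of other clusters joined the same group. Shares of cells with a read changed beyond their interval in 55 of 120 alternatives.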
